A study of Leucoraja erinaceus with 6 samples.

Results

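The 59 rows described here are developmental transcription factors and other zinc finger proteins in the little skate (Leucoraja erinaceus), measured in pectoral fin motor neurons and in tail spinal cord cells. They were taken from the 7080 rows of the deposited table by words in the protein description, such as zinc finger, homeobox, SRY, paired box, forkhead, POU, early growth response, activating transcription factor, v-maf and Kruppel. The 12 rows describing HoxB, Meis, Islet, Lhx and FoxP proteins were left out by the same rule. Only the 1576 rows with a description could be chosen, so further transcription factors may stand among the 5504 rows without one. Each row carries a short symbol assigned by hand from its description, and such a symbol stands for the matched protein, not for a proven skate ortholog.

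Pectoral fin motor neurons gave 3 libraries, numbered 1, 2 and 3. Tail spinal cord cells gave 3 more, numbered 1, 2 and 4. All 6 libraries came from the spinal cord of wild type embryos at stages 30 to 31, and the cells were sorted by hand. Cell class and position along the body change together between the groups, so these cannot be told apart. Whether each library had its own embryos is not stated in the labels, and a p-value here covers only library-to-library spread, which may be technical. Values are TPM, a transcript level scaled for length and library total. Read depth is unknown. In these bulk libraries, fewer cells of a type and less RNA per cell cannot be told apart.

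Transcription factors bind DNA and set which genes a cell reads. In the developing spinal cord, SOX2, SOX9 and PAX6 act in dividing progenitors. Homeodomain proteins such as the POU and Hox families divide neurons into classes and body levels, and PBX and PKNOX proteins bind DNA together with Hox proteins. EGR1, ATF3 and ATF4 belong to another kind of regulator, which responds quickly to growth factors, activity or stress. The words of the rule also take in proteins that carry a zinc finger but are not known as DNA-binding factors. Of the 27 rows in the remaining zinc finger class, 11 name another domain type, such as CCCH, DHHC, AN1 or RAN-binding, and 16 are numbered or unspecified zinc finger proteins.

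The libraries differed in how many rows they held. Across the whole table, 5, 2169 and 2102 rows were listed at 0 in pectoral replicates 1, 2 and 3, against 1051, 1586 and 3552 in tail replicates 1, 2 and 4. The same order held for the 59 rows, of which 0, 18 and 14 were at 0 in the pectoral libraries and 4, 12 and 31 in the tail libraries. Pectoral replicate 1 stood apart, with a column sum of 50000 TPM and nearly no row at 0. Whether the rows of the table were chosen by their level in that library was not tested, and such a choice would bear on the zeros, on which library is highest and on the overlap of groups. A value of 0 is therefore given as listed at 0 and not as absence. Of 11 fixed motor neuron markers 4 had a described row. Of these, ISL1 and ISL2 separated fully with pectoral libraries on top, as did 4.6% of all rows, while CHAT and SLC18A3 overlapped. ISL1 stood at 1.63, 1.22 and 4.81 TPM across the pectoral replicates, versus 0.249, 0.0563 and 0 TPM across the tail replicates. It entered the limma test described below through the pectoral libraries alone. Among the tested rows its lack of overlap was therefore set by the filter, and its limma adjusted p was 0.62. ISL2 stood at 3.43, 0.956 and 0.327 TPM across the pectoral replicates, versus 0.139, 0 and 0 TPM across the tail replicates, and was not tested. Of 9 general neuron markers 2 had a described row, STMN2 and GAP43, and both overlapped between the groups. Of 5 floor plate and roof plate markers 1 had a described row, SHH, which was not tested. SHH stood at 3.40, 0.931 and 1.09 TPM across the pectoral replicates, versus 0.945, 2.64e-08 and 0 TPM across the tail replicates, with overlap. No described row named any of the 11 muscle, 8 blood, 8 endothelial, 12 fibroblast, meninges and sclerotome, 7 epidermal, 7 oligodendrocyte or 7 neural crest and Schwann markers. A marker without a described row may still stand among the rows with none.

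**Figure D1:**
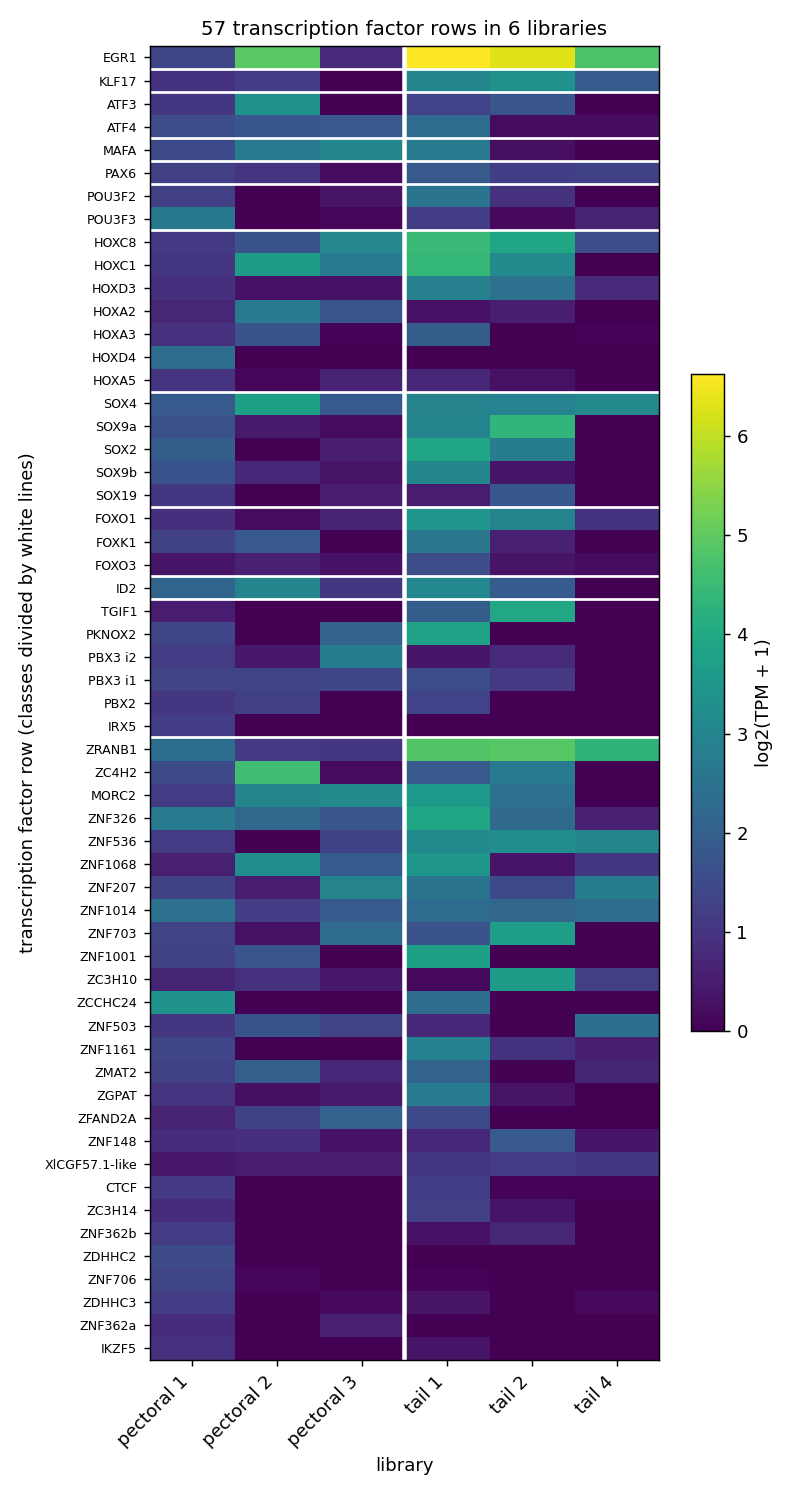
The level of 57 of the 59 rows, as log2(TPM + 1) in color, in each of the 6 libraries (pectoral left of the thick line, tail right), with classes divided by white lines and rows within a class ordered by mean. EGR1 and ZRANB1 are the brightest rows of the tail libraries, and tail replicate 4 is dark in most rows, with 31 of 59 at 0.

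Most of the 59 factors were low, and EGR1 was the exception. The median row averaged 1.65 TPM over the 6 libraries, the same as the median of all 7080 rows (1.65 TPM), and row means ran from 0.207 to 39.0 TPM. The rows summed to 108, 163 and 85.5 TPM in the pectoral libraries, against 387, 271 and 90.6 TPM in the tail libraries. Tail replicates 1 and 2 were above every pectoral library, while tail replicate 4 fell among them. These sums were not rescaled between libraries. Tail replicate 1 had the largest column sum of the whole table (74224 TPM). Its median-ratio size factor, a library-wide scale, was 1.97, against 0.717 to 1.02 in the other libraries. The part of that scale in its sum and in its highest values was not tested. EGR1 alone made up 1.48%, 17.9% and 0.877% of the pectoral sums, against 25.1%, 29.1% and 29.2% of the tail sums. Without EGR1 the sums were 106.3, 134.1 and 84.78 TPM in the pectoral libraries and 289.9, 192.1 and 64.16 TPM in the tail libraries, so that tail replicate 4 was the lowest of all 6. Of the 59 rows, 26 had their highest value in tail replicate 1 (44.1%, against 29.2% of all rows) and 12 in pectoral replicate 1 (20.3%, against 26.4% of all rows).

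**Figure D2:**
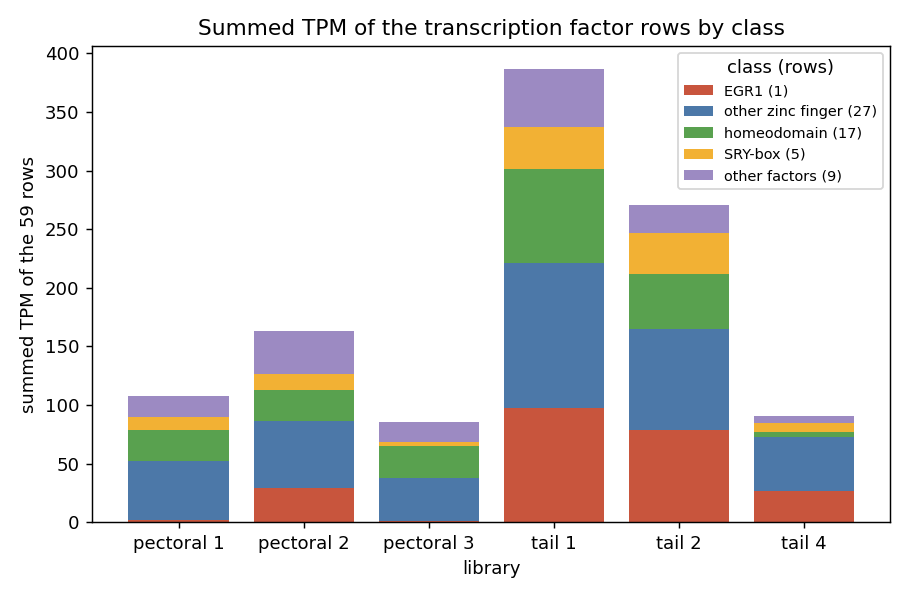
Summed TPM of the 59 rows in each library, stacked by class, with the number of rows of each class in the legend; the homeodomain block joins the Hox, POU, paired box and other homeobox rows. The bars of tail replicates 1 and 2 reach 387 and 271 TPM, and EGR1 takes 25.1% to 29.2% of each tail bar but under 18% of each pectoral bar.

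None of the 31 tested rows among the 59 passed the test between pectoral and tail libraries. The test was limma on log2(TPM + 1), fitted over the 3752 rows that reached 1 TPM in 3 or more libraries, with p-values adjusted over all of them by the Benjamini-Hochberg method. Of the 59 rows 31 were tested (52.5%, against 53.0% of the table), and 1 of the 31 entered through the tail libraries alone and 0 through the pectoral libraries alone. Of the 31, 0 had an adjusted p under 0.05 in either direction, against 3 of all 3752 rows (0.08%), of which 0.0533% of tested rows were higher and 0.0267% lower in pectoral libraries. At an unadjusted p under 0.05, 3 rows (9.68%) were lower in pectoral libraries, namely EGR1, ZRANB1 and ZNF536, and 0 were higher. Over all tested rows 3.94% were lower and 3.09% higher, or 7.04% in either direction, so the share among the factors is near the background. The median log2 fold change, pectoral minus tail, was -0.05 over the 31 rows and -0.18 over all tested rows, and 18 of the 31 (58.1%) were negative and 13 positive, against 56.5% negative and 43.5% positive over all tested rows. With median-ratio scaling these medians were 0.27 and 0.09, so the sign of either median depends on the scaling.

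**Figure D3:**
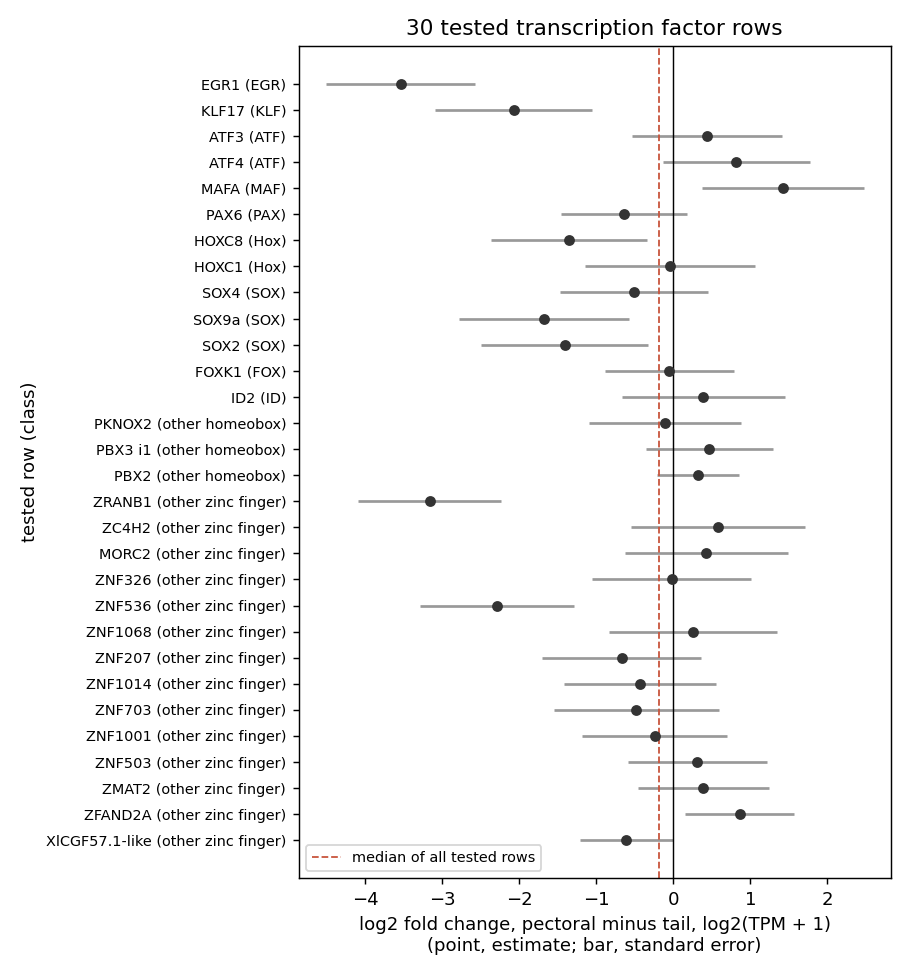
The log2 fold change (pectoral minus tail, on the log2(TPM + 1) scale) of 30 of the 31 tested rows with its standard error, ordered by class; the dashed line is the median of all tested rows, -0.18. EGR1, ZRANB1, ZNF536 and KLF17 lie between -3.54 and -2.07, and the other rows drawn between -1.68 and 1.42.

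EGR1, an immediate early zinc finger factor that cells switch on within a short time of a stimulus, had the highest mean of the 59 rows. It stood at 1.60, 29.2 and 0.750 TPM across the pectoral replicates, versus 97.3, 78.9 and 26.5 TPM across the tail replicates. Pectoral replicate 2 lay just above tail replicate 4, so the groups overlapped, while the other 2 pectoral libraries were far below every tail library. EGR1 averaged 10.5 ± 16.2 TPM over pectoral libraries and 67.5 ± 36.8 TPM over tail libraries (SD, n = 3 each). Its log2 fold change was -3.54, with SE 0.97 and a limma adjusted p of 0.31. With limma array weights, which give each library its own weight, EGR1 passed (log2 fold change -4.12, adjusted p = 0.004), as it did without pectoral replicate 2 (-4.81, adjusted p = 0.014). Over the other alternatives its adjusted p ran up to 0.76. With array weights EGR1 was the 1 call among the 31 rows, where 15 of 3752 rows (0.4%) were called lower and 11 (0.293%) higher. The weights were 2.24, 0.912 and 0.863 for the pectoral replicates and 0.601, 2.28 and 0.414 for the tail replicates. That call thus leans on pectoral replicate 1 and tail replicate 2. Pectoral replicate 2 and tail replicate 4, through which the groups overlapped, counted for less.

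The other early response and stress genes, ATF3, ATF4 and JUN, overlapped between the groups. ATF3, a stress-induced bZIP factor that is also switched on in injured neurons, stood at 1.07, 9.37 and 0 TPM across the pectoral replicates, versus 1.5, 2.41 and 0 TPM across the tail replicates. Like EGR1 it was highest of the pectoral libraries in replicate 2, but its groups overlapped fully (log2 fold change 0.44, SE 0.97, limma adjusted p = 0.94). ATF4, the effector of the integrated stress response, stood at 1.97, 2.46 and 2.57 TPM across the pectoral replicates, versus 3.97, 0.163 and 0.155 TPM across the tail replicates, with tail replicate 1 above and the other 2 tail libraries below every pectoral library. Of 31 listed immediate early genes 3 had a described row and all 3 were tested, with 0 called and 1, EGR1, at an unadjusted p under 0.05. The third, JUN, a partner in the AP-1 dimer and no member of the 59, stood at 8.50, 9.90 and 12.2 TPM across the pectoral replicates, versus 35.4, 15.8 and 9.13 TPM across the tail replicates. Its tail replicate 4 was among the pectoral values, and its log2 fold change was -0.73 (SE 0.88, limma adjusted p = 0.90). Of 11 listed stress response factors 2 had a described row and 1, ATF4, was tested.

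Pectoral replicate 2 held the highest pectoral value of several rows. Besides EGR1 and ATF3 these included SOX4 (12.5 TPM), ZC4H2 (23.2 TPM) and HOXC1 (11.7 TPM), chosen after their values were seen. How many of the 59 rows, or of all rows, had their highest pectoral value there was not counted. Of the 59 rows, 5 had their highest value of all 6 libraries there (8.47%, against 10.8% of all rows). EGR1 and HOXC1 were not among these 5, since both were highest in tail replicate 1 (97.3 and 20.4 TPM). In the same library COL2A1, a collagen of cartilage and notochord and no member of the 59, stood at 69.0 TPM, against 2.22 and 4.49 TPM in pectoral replicates 1 and 3 and 4.91, 0.109 and 0 TPM in the tail libraries. Of 4 fixed cartilage markers 2 had a described row, and the other, SOX9, did not share this pattern. Its row 9a stood at 0.382 TPM in pectoral replicate 2, below the 2.14 TPM of pectoral replicate 1, and its log2 fold change was -1.68, against 2.52 for COL2A1. The part of COL2A1 in the values of that library was not tested.

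ZRANB1 had the largest log2 fold change in size of the tested rows in the remaining zinc finger class, with no overlap between the groups. In mammals it is a deubiquitinase with a RAN-binding type of zinc finger, and so not a DNA-binding factor. It stood at 4.26, 1.18 and 1.05 TPM across the pectoral replicates, versus 27.4, 28.7 and 18.9 TPM across the tail replicates. Every tail library was far above the highest pectoral library, and tail replicate 4 held the row as the others did. Means were 2.16 ± 1.81 TPM for pectoral and 25.0 ± 5.3 TPM for tail libraries, and the log2 fold change was -3.16 (SE 0.93, unadjusted p = 0.0018, limma adjusted p = 0.38). The unadjusted p was under 0.05 in all 14 alternative fits, and the adjusted p ran from 0.063 with array weights to 0.70 without pectoral replicate 3.

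ZNF536, which in mouse cells restrains neuronal differentiation, was also separated. It stood at 1.27, 0.0246 and 1.46 TPM across the pectoral replicates, versus 7.76, 8.48 and 7.08 TPM across the tail replicates. Means were 0.918 ± 0.779 TPM for pectoral and 7.78 ± 0.697 TPM for tail libraries, and the tail libraries lay close together and all above the pectoral ones. The log2 fold change was -2.29 (SE 1.0, unadjusted p = 0.028, limma adjusted p = 0.62), and the unadjusted p passed 0.05 in 3 of the 6 fits without a library, namely those without pectoral replicate 3, tail replicate 1 or tail replicate 4. KLF17, a Kruppel-like zinc finger factor, stood at 0.952, 1.30 and 0 TPM across the pectoral replicates, versus 7.20, 9.52 and 2.81 TPM across the tail replicates, again with no overlap. Its log2 fold change was -2.07 (SE 1.02, unadjusted p = 0.051, limma adjusted p = 0.71). The unadjusted limma p was under 0.05 in 6 of 14 alternative fits, and the lowest limma adjusted p of the 14 was 0.22. The authors' deposited table gives unadjusted p-values of 3.4e-04 for ZNF536, 0.0021 for ZRANB1, 0.045 for KLF17 and 0.07 for EGR1. Of the 59 rows, 4 (6.78%) have a p under 0.05 by the authors' deposited table, against 3.09% of all rows.

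**Figure D4:**
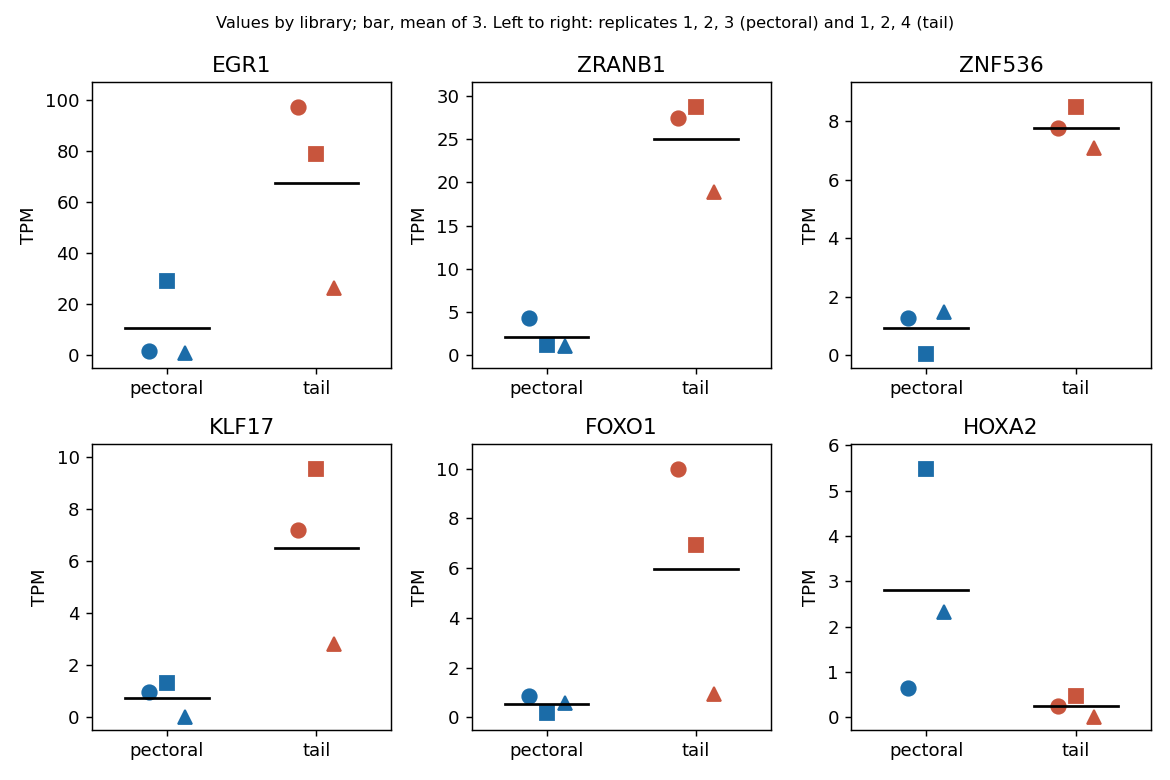
TPM of 6 rows in each library on linear axes that differ between panels, with pectoral left of tail, a symbol for each replicate and a bar for the mean of 3. ZRANB1, ZNF536, KLF17 and FOXO1 have every pectoral library below every tail library, HOXA2 has every pectoral library above, and EGR1 overlaps through pectoral replicate 2 (29.2 TPM) and tail replicate 4 (26.5 TPM).

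Over all 59 rows the groups did not overlap in 6, or 10.2%, against 8.8% of the table (4.6% with pectoral above and 4.19% with pectoral below). The 5 rows with every pectoral library below every tail library were ZRANB1, ZNF536, KLF17, FOXO1 and a row described as gastrula zinc finger protein XlCGF57.1-like, and the 1 with every pectoral library above was HOXA2. Among the 31 tested rows, 4 were lower without overlap, or 12.9%, against 7.6% of all tested rows, and 0 were higher, against 4.18%. A row that enters the fit through 1 group alone cannot overlap, and the XlCGF57.1-like row among these 4 is such a row. The shares over all tested rows also hold such rows, 39 through the tail and 87 through the pectoral libraries. The XlCGF57.1-like row, a choice made with its values in view, stood at 0.376, 0.417 and 0.444 TPM across the pectoral replicates, versus 1.12, 1.28 and 1.06 TPM across the tail replicates. It is the row that passed the filter through the tail libraries alone, so its lack of overlap was set by the filter. Its log2 fold change was -0.61 (SE 0.60, limma adjusted p = 0.89), and the authors' deposited table gives an unadjusted p of 4.3e-04. Its Trinity gene, a cluster of contigs that the assembly treats as a gene, has 3 undescribed contigs, and in each the groups overlapped.

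The other zinc finger rows went both ways. Of the 14 tested, 0 were called, 8 had negative and 6 positive log2 fold changes, and the class median was -0.13. The 9 tested numbered or unspecified rows had a median of -0.43 with 7 negative, and the 5 tested rows with another named domain had a median of 0.43 with 4 positive, ZRANB1 being the exception. This is a description of small numbers, and with median-ratio scaling the median of the class was 0.24. ZC4H2, a nuclear zinc finger protein mutated in people with congenital joint contractures, stood at 1.86, 23.2 and 0.147 TPM across the pectoral replicates, versus 2.62, 5.53 and 0 TPM across the tail replicates, so that 1 pectoral library set its mean. MORC2, an ATPase of gene silencing whose mutations in people cause an axonal neuropathy, stood at 1.28, 7.09 and 7.85 TPM across the pectoral replicates, versus 10.9, 4.62 and 0 TPM across the tail replicates. Neither row separated the groups, and the sign of both log2 fold changes (0.58 and 0.43) turned with array weights (-0.28 and -0.35). The 27 rows that the naming rule did not reach held values from 0 to 14 TPM, and 12 of them were tested, with log2 fold changes between -0.67 and 0.86 and a smallest limma adjusted p of 0.87.

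The 7 Hox rows outside the HoxB group gave no called difference, and 2 of them were tested. HOXA2, a hindbrain patterning gene, stood at 0.641, 5.47 and 2.33 TPM across the pectoral replicates, versus 0.242, 0.471 and 0 TPM across the tail replicates, with no overlap (exact two-sided permutation p = 0.1, the smallest that 3 against 3 libraries allow). It reached 1 TPM in 2 libraries and was not tested in the fit. HOXD3 went the other way, with 0.865, 0.244 and 0.252 TPM across the pectoral replicates, versus 6.41, 4.6 and 0.731 TPM across the tail replicates, and overlapped because tail replicate 4 fell below pectoral replicate 1 (exact permutation p = 0.2).

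The row described as homeobox C8a stood at 1.20, 2.25 and 7.32 TPM across the pectoral replicates, versus 21.1, 13.9 and 2.03 TPM across the tail replicates. Its mouse namesake marks motor neurons of the forelimb level. Tail replicates 1 and 2 were above every pectoral library and tail replicate 4 was not (log2 fold change -1.35, SE 1.01, limma adjusted p = 0.87). Leaving out tail replicate 4 gave a log2 fold change of -2.21, and leaving out tail replicate 1 gave -0.78. The unadjusted limma p was under 0.05 in 3 of 14 alternative fits, namely without tail replicate 4, with array weights and with the replicate block. The lowest limma adjusted p of the 14 was 0.27. The row described as homeo box C1a stood at 1.06, 11.7 and 5.56 TPM across the pectoral replicates, versus 20.4, 7.77 and 0 TPM across the tail replicates, with a log2 fold change of -0.04 that took either sign across alternatives. HOXA3 (0.0484 to 2.29 TPM in pectoral and 0 to 2.88 TPM in tail libraries) and HOXA5 (0.0739 to 1.01 TPM in pectoral and 0 to 0.690 TPM in tail libraries) were low in both groups. HOXD4 stood at 4.15 TPM in pectoral replicate 1 and at 0.0359 TPM or less in the other 5 libraries.

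The names of several Hox rows carry some doubt. The skate reference gene table (assembly Leri_hhj_1) lists 3 symbols that begin with hoxa, 10 with hoxb, 4 with hoxd and 0 with hoxc, though 13416 of its 23250 genes carry only a placeholder symbol. The rows named for HoxC are therefore given by description, or by the symbol HOXC1 for homeo box C1a, and not as skate HoxC genes. The homeo box C1a contig, TRINITY_DN18441_c13_g1_i1, comes from the same assembly cluster as the homeobox B7a contig, TRINITY_DN18441_c8_g4_i4. The HOXA3 and HOXD4 rows are contigs of 1 Trinity gene, which also holds the homeobox B4a row and an undescribed contig at 9.64, 1.37 and 0.259 TPM across the pectoral replicates, versus 2.45, 0.245 and 1.86e-04 TPM across the tail replicates. All together 12 of the 59 rows share a Trinity gene with another of the 59, so that the 59 rows come from 53 Trinity genes, and values of such rows may not mark separate genes.

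The Hox cofactors and other homeobox rows were low and often at 0. All 7 rows of this class were listed at 0 in tail replicate 4, so its class sum was 0 there, and 42.9% of the values of the class were 0, against 22.3% over the 59 rows. PBX3, which binds DNA beside Hox proteins, had a pair of contigs. The first stood at 1.56, 1.55 and 1.60 TPM across the pectoral replicates, versus 1.96, 1.15 and 0 TPM across the tail replicates, and the second at 1.27, 0.365 and 5.86 TPM across the pectoral replicates, versus 0.327, 0.735 and 0 TPM across the tail replicates. The pectoral values of the first contig were nearly equal, and neither contig separated the groups. PKNOX2, of the same TALE family, stood at 1.60, 0 and 3.25 TPM across the pectoral replicates, versus 13.0, 0 and 0 TPM across the tail replicates, so that tail replicate 1 alone set its tail mean. TGIF1, a corepressor of TGF-beta and retinoid signals, was highest in tail replicates 1 and 2, at 0.451, 0 and 0.00273 TPM across the pectoral replicates, versus 2.88, 14.6 and 0 TPM across the tail replicates. PBX2 was tested (log2 fold change 0.32, SE 0.53, limma adjusted p = 0.92), and IRX5 reached 1 TPM in 1 library.

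The POU rows were also low. POU3F2, a neural POU factor also called BRN2, stood at 1.39, 0 and 0.281 TPM across the pectoral replicates, versus 4.87, 0.931 and 0 TPM across the tail replicates. Its relative POU3F3 stood at 5.39, 0 and 0.0800 TPM across the pectoral replicates, versus 1.32, 0.118 and 0.557 TPM across the tail replicates. POU3F2 was highest in tail replicate 1 and POU3F3 in pectoral replicate 1, the libraries of each group with the fewest rows at 0, and neither row was tested.

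SOX genes averaged more in tail libraries in 5 of 5 rows, with overlap in each. A higher tail mean was also found in 34 of the 59 rows. The share over all rows of the table was not counted, but 56.5% of all tested rows had a negative log2 fold change. These means were not rescaled between libraries, and the size factor of tail replicate 1 was 1.97. The 5 rows are not 5 separate genes, since SOX2 and SOX19 share a Trinity gene, as do the SOX9 contigs. All but SOX4 were at 0 in tail replicate 4, so their tail means rest on tail replicates 1 and 2. SOX2, which maintains neural progenitors, stood at 2.85, 0 and 0.439 TPM across the pectoral replicates, versus 14, 5.98 and 0 TPM across the tail replicates. SOX9, of progenitors and glia and also of cartilage, had a pair of contigs of 1 Trinity gene, with 2.14, 0.382 and 0.134 TPM across the pectoral replicates, versus 6.95, 19.4 and 0 TPM across the tail replicates for the row described as 9a and 2.16, 0.660 and 0.270 TPM across the pectoral replicates, versus 7.15, 0.297 and 0 TPM across the tail replicates for 9b. In SOX2 and the 9a row both tail replicates 1 and 2 exceeded every pectoral library, and tail replicate 4 was at 0. Of the 3 SOX rows tested, 0 were called, and the class median log2 fold change was -1.41 (SOX9 row 9a -1.68, SOX2 -1.41, SOX4 -0.51, smallest limma adjusted p 0.84). Without tail replicate 4 both SOX2 (-2.53) and the 9a row (-2.90) had an unadjusted limma p under 0.05, and neither did in the unweighted test above. The 9a row also did with array weights. Both did in a fit with replicate number as a block, which rests on replicates 1 and 2 alone. The log2 fold change was nearer 0 without another tail library, at -0.58 for SOX2 without tail replicate 1 and -0.73 for the 9a row without tail replicate 2. Over the 6 fits without 1 library the class median ran from -2.53 to -0.58. SOX19, a SoxB1 gene in fish that shares its Trinity gene with SOX2, stood between 0 and 1.07 TPM in pectoral and between 0 and 2.56 TPM in tail libraries.

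The fixed progenitor markers went both ways. Of 9 such markers 5 had a described row and were tested, 3 of them members (SOX2, SOX9 and PAX6), with 0 called. The 3 members had negative log2 fold changes, and the other 2, FABP7 and ID4, had positive ones. FABP7, a radial glial fatty acid binding protein and no member, stood at 9.62, 41.1 and 37.9 TPM across the pectoral replicates, versus 8.12, 5.74 and 21.0 TPM across the tail replicates, with overlap (log2 fold change 1.23, SE 0.88, limma adjusted p = 0.87). ID4, an inhibitor of helix-loop-helix factors and no member, stood at 72.6, 30.3 and 76.9 TPM across the pectoral replicates, versus 14.4, 22.4 and 0.309 TPM across the tail replicates. Every pectoral library was above every tail library for ID4 (log2 fold change 2.86, SE 0.94, unadjusted p = 0.0048, limma adjusted p = 0.49).

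SOX4, which promotes differentiation in newborn neurons, overlapped as well. It stood at 2.66, 12.5 and 2.64 TPM across the pectoral replicates, versus 6.77, 6.58 and 7.73 TPM across the tail replicates. It was the only SOX row above 0 in tail replicate 4, and pectoral replicate 2 lay above and the other pectoral libraries below every tail library. PAX6, a paired box factor of ventral progenitors, stood at 1.40, 0.982 and 0.142 TPM across the pectoral replicates, versus 2.59, 1.33 and 1.46 TPM across the tail replicates, with overlap through pectoral replicate 1 (log2 fold change -0.64, SE 0.82, limma adjusted p = 0.91). ID2, a helix-loop-helix protein without a DNA-binding region that holds back other factors of its family, stood at 3.42, 7.04 and 1.06 TPM across the pectoral replicates, versus 7.48, 2.82 and 0 TPM across the tail replicates.

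MAFA, a v-maf factor of the bZIP kind known from pancreatic beta cells, had the highest positive log2 fold change of the 31 tested rows. It stood at 1.80, 5.48 and 7.28 TPM across the pectoral replicates, versus 5.48, 0.213 and 0 TPM across the tail replicates. Tail replicate 1 reached the pectoral range and the other tail libraries lay below every pectoral library. The log2 fold change was 1.42 (SE 1.05, limma adjusted p = 0.87), and in fits without 1 library it lay between 0.92 (tail replicate 4 left out) and 2.27 (tail replicate 1 left out). The unadjusted p was under 0.05 in 1 of 14 alternatives, the fit without tail replicate 1, where the limma adjusted p was 0.68.

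Among forkhead rows FOXO1, which insulin signalling keeps out of the nucleus, stood at 0.848, 0.174 and 0.585 TPM across the pectoral replicates, versus 9.98, 6.94 and 0.945 TPM across the tail replicates. The groups did not overlap, though tail replicate 4 exceeded pectoral replicate 1 by little (exact permutation p = 0.1, the smallest possible). It reached 1 TPM in 2 libraries and was not tested in the fit. Its relative FOXO3 stood between 0.242 and 0.513 TPM in pectoral and between 0.151 and 1.98 TPM in tail libraries. FOXK1, a regulator of metabolism and autophagy, stood at 1.41, 2.58 and 0 TPM across the pectoral replicates, versus 5.13, 0.529 and 0.0291 TPM across the tail replicates (log2 fold change -0.05, SE 0.84, limma adjusted p = 1.0).

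Other spinal transcription factors from the fixed lists were few in the described rows. Of 47 patterning factors of progenitors 6 had a described row, 5 of them members, and 5 were tested, with 0 called and 1, ID4, at an unadjusted p under 0.05 and higher in pectoral libraries. Of 73 factors of postmitotic spinal neurons 11 had a described row, 6 of them members, and 5 were tested, with 0 called and 1 at an unadjusted p under 0.05. That gene, BCL11A, a zinc finger factor of neurons whose description the rule does not reach, stood at 2.09, 7.40 and 0.174 TPM across the pectoral replicates, versus 7.03, 21.4 and 45.1 TPM across the tail replicates (log2 fold change -2.70, SE 1.0, limma adjusted p = 0.54). Its tail replicate 1 fell just below pectoral replicate 2, and its highest value was in tail replicate 4, where most of the 59 rows were at 0. NR2F1 and NR2F2, a pair of orphan nuclear receptors described from contigs of 1 Trinity gene, stood at 9.57, 0 and 11.3 TPM across the pectoral replicates, versus 0.930, 0.0448 and 0 TPM across the tail replicates and at 2.80, 0.0273 and 1.33 TPM across the pectoral replicates, versus 9.99, 2.70 and 0 TPM across the tail replicates.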

How the data were processed

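Per the labels' protocols, cells were sorted manually, their RNA was isolated with an Arcturus Picopure kit, and Illumina TruSeq stranded mRNA libraries followed. The authors deposited TPM for each of 6 libraries and an unadjusted p-value for each row, headed t-test, per the file headers. Tools listed in the submitters' processing notes are edgeR 3.18.1, Salmon 0.8.2 and Trimmomatic 0.33, with no step for each. For genome build and assembly, the origin is not given in the sources used here. A row sum, also deposited, was not used. After removal of 1 exact repeat, 7080 rows remained, with column sums of 48449 to 74224 TPM, so they hold part of each library, and depth and detection limits are unknown. None of the accessions matched the skate reference table (0 matches), and no sequence of these contigs was used.

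limma 3.58.1 in R 4.3.3 (empirical Bayes with a mean-variance trend, two-sided) was fitted to log2(TPM + 1) of the 3752 rows at 1 TPM or more in at least 3 libraries. The code was also run on simulated normal values. These lacked the uneven zeros of the real libraries, so that run cannot show how the fit behaves with them. Fold changes are pectoral minus tail, and the pseudocount of 1 shrinks those of low rows. Low rows outside the fit have exact permutation tests. Named rows were those with a call or an unadjusted p under 0.05, groups that did not overlap where the higher mean reached 3 TPM, the 3 highest of each class, and all rows of the smaller families (32 in all). Alternatives were 2 scalings, pseudocounts of 0.1 and 5, no filter, each library left out, pectoral replicate 1 and tail replicate 4 left out together, a replicate block and array weights. The members and lists were chosen with earlier results of these data known. Of the 59 rows, 2 enter the counts and sums but are not reported here singly.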

Additional observations from a re-analysis of the deposited data

How the results depend on the processing

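Of 266 single-row comparisons over 19 tested named rows and 14 alternatives, 238 kept direction and side of the threshold, 26 changed sign and 2, both of EGR1, gained a call. The sign changes came from 7 rows whose log2 fold changes lay between -0.11 and 0.58. They were ZC4H2 -0.28, ATF3 -0.11, PKNOX2 0.52, FOXK1 0.22 and MORC2 -0.35 with array weights, PKNOX2 0.25, HOXC1 0.43 and FOXK1 0.27 with median-ratio scaling, PKNOX2 0.71 and HOXC1 0.75 with a pseudocount of 0.1, MORC2 -0.93 with the replicate block, and ID2 -0.48 without pectoral replicate 1 and tail replicate 4 together. In fits without 1 library the ranges were -0.67 to 1.53 for ZC4H2, -0.51 to 1.18 for ATF3, -0.75 to 1.16 for PKNOX2, -1.30 to 0.91 for HOXC1, -0.58 to 0.71 for FOXK1, -0.44 to 1.1 for ID2 and -0.58 to 1.20 for MORC2.

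The count of the 31 rows called lower was 0 and became 1 with array weights, and was 0 to 1 in fits without 1 library. Rows at an unadjusted p under 0.05 and lower numbered 3, and 6 with array weights, with the replicate block and when both pectoral replicate 1 and tail replicate 4 were dropped. In fits without 1 library they numbered 2 to 7, the 7 without tail replicate 4, and those higher 0 to 1. Whether such counts rose as much over the whole fit was not tested, so the rise cannot be tied to the 31 rows. Without tail replicate 4 the background median also fell, from -0.18 to -0.44. Over all rows, 2 were called higher and 1 lower. Higher calls were 1 with median-ratio scaling, either pseudocount and the replicate block, 0 without both pectoral replicate 1 and tail replicate 4 and 11 with array weights. Lower calls were 0 with either scaling, a pseudocount of 0.1, the replicate block or both libraries left out, and 15 with array weights. Without 1 library they were 1 to 3 higher and 0 to 2 lower. Class medians moved past the library spread in 3 cases, SRY-box to -3.09 without both libraries, other homeobox to 1.14 with a pseudocount of 0.1 and other zinc finger to 0.46 without tail replicate 1 (range -0.50 to 0.46 without 1 library). The median of all tested rows was 0.09 with median-ratio scaling, against -0.18. The cause of these changes was not tested.

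Replicate numbers 1 and 2 occur in both groups, but nothing in the labels says that they pair, so the numbers were not taken as pairs. Deviations of same-numbered libraries correlated with r of -0.03 and 0.00 across rows, and those of differently numbered libraries with r of -0.04 to 0.05. Such correlations cannot exclude shared embryos, since the libraries also differ widely in rows at 0. With the block, 0 of the 31 rows were called. Pectoral replicate 3 and tail replicate 4 have no partner of the same number and add nothing to that fit. It therefore rests on replicates 1 and 2 alone, and its lack of calls says little. Depth is unknown, so no detection limit can be set for the 22.3% of the values of the 59 rows that are at 0.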

Other observations

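Some Trinity genes of the 59 rows also hold contigs without a description. The Trinity gene of ZNF1001 and ZNF1068 held 6 such contigs, of which TRINITY_DN18737_c2_g1_i21 stood at 10.2, 43.9 and 22.8 TPM across the pectoral replicates, versus 55.1, 30.0 and 59.4 TPM across the tail replicates. TRINITY_DN18737_c2_g1_i18 stood at 13.0, 9.68 and 37.4 TPM across the pectoral replicates, versus 47.65, 37.8 and 26.2 TPM across the tail replicates. Both lay above every described zinc finger row of the numbered kind in each tail library, and in both the groups overlapped. The described rows of that gene were lower, with ZNF1068 at 0.491, 8.47 and 2.81 TPM across the pectoral replicates, versus 10.4, 0.297 and 1.11 TPM across the tail replicates and ZNF1001 at 1.45, 2.33 and 0 TPM across the pectoral replicates, versus 12.5, 0 and 0 TPM across the tail replicates. These rows were named after their values were seen.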
